A study of Mus musculus with 6 samples.

Results

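The nuclear genes of the respiratory chain were followed through 6 single-cell RNA-seq libraries of mouse lung. The 84 genes were chosen by symbol alone from the 32285 features of the count tables: the Nduf genes of the series a, b, c, s and v, Sdha to Sdhd, every Uqcr gene, Cox4 to Cox8 and every Atp5 gene. The 1 matching symbol that ends in -ps, Ndufb1-ps, was left out. The chosen genes fell into complex I (35 genes), complex II (4 genes), complex III (8 genes), complex IV (20 genes, with Ndufa4 and Ndufa4l2 counted here) and complex V (17 genes). They lie on 19 chromosomes in the GENCODE M21 annotation of GRCm38.

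The study compared the non-haematopoietic cells, called niche cells, of normal and leukaemic lungs. The 3 Control libraries held niche cells sorted from normal lungs after digestion with Liberase and DNaseI. The 3 AML libraries held niche cells isolated in the same way from lungs infiltrated by acute myeloid leukaemia of the genotype Trp53 R172H/Δ, and sorted GFP+ leukaemia cells had been mixed back in at 20% tumour to 80% niche cells. All libraries were made with the 10x Genomics 3′ kit, version 3.1. The labels gave no strain, age, sex, batch or date. They did not say whether the libraries of a group came from different animals, so every p-value here measures the spread between libraries, which may be technical.

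The respiratory chain sits in the inner mitochondrial membrane. Complex I takes electrons from NADH and complex II, which is also the succinate dehydrogenase of the tricarboxylic acid cycle, takes them from succinate. Complex III passes them to cytochrome c, complex IV passes them on to oxygen, and complex V, the ATP synthase, uses the proton gradient to make ATP. Most subunits are encoded in the nucleus, and a small core of complexes I, III, IV and V is encoded by mitochondrial DNA. Several complex IV subunits exist in a common form and in a form restricted to certain tissues, and Cox4i2 is known for its expression in lung.

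The stretches of DNA around the start sites of these genes were read for short words, because the nuclear factors NRF1, GABP (an ETS factor) and YY1 are known regulators of respiratory chain genes. RefSeq promoter windows of GRCm38.p6, from 250 bases before to 50 bases after a start site, were matched by symbol for 67 of the 84 genes and covered 27025 genes in all. The NRF1 word CGCATGCG was found on either strand in 9 of 67 members (13.4%) and in 2.07% of all genes. The ETS word CCGGAAG was found in 17 members (25.4%) and in 9.93% of all genes, and the YY1 word AAGATGGCG in 7 members (10.4%) and in 1.64% of all genes. At least 1 of these 3 words stood in the windows of 27 members, 40.3%, against 12.8% of all genes, and 5 members held more than 1 of them. The other 7 words searched were GCGCATGC, which overlaps the NRF1 word (14.9% of members, 3.05% of all genes), GGAAGTG (17.9% and 12.5%), AAATGGCG (2.99% and 0.87%), the GC box GGGCGG (40.3% and 38.2%), the TATA box TATAAA (11.9% and 15.7%), the CCAAT box ATTGG (44.8% and 41.1%) and the cAMP response element TGACGTCA (5.97% and 2.03%). A match describes letters in the window and does not show a bound site. The 250 bases before a start site are shown for 4 members that carry a word, of which 3 recur in the results. These 3 are Ndufs3, whose level rose in alveolar type 2 cells, and Sdhd and Atp5g2, which were among the members furthest above the capillary level in leukaemia cells. Atp5j, the last, is shown because it holds all 3 words in the window shown. Each runs 5′ to 3′ on the gene's strand, and capitals mark the word: CCGGAAG in Ndufs3, its reverse complement CTTCCGG in Sdhd, CGCATGCG in Atp5g2, and CGCATGCG, AAGATGGCG and CCGGAAG, in that order, in Atp5j.
Ndufs3, chr2:90904722-90904971, minus strand: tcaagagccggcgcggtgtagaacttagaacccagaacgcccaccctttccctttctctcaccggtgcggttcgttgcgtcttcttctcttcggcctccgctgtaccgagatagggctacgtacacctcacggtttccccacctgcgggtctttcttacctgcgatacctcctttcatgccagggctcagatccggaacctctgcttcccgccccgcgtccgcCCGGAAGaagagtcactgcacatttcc
Sdhd, chr9:50603850-50604099, minus strand: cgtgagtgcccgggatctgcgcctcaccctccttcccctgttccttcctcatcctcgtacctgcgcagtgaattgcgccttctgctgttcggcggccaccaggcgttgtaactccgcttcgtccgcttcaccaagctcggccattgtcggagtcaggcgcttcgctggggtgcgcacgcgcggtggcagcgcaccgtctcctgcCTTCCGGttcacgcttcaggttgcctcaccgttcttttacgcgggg
Atp5g2, chr15:102671048-102671297, minus strand: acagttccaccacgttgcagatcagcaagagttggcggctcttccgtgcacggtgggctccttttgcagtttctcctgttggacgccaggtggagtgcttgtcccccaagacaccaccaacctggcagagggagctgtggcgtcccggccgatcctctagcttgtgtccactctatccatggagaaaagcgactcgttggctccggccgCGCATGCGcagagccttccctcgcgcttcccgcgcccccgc
Atp5j, chr16:84834977-84835226, minus strand: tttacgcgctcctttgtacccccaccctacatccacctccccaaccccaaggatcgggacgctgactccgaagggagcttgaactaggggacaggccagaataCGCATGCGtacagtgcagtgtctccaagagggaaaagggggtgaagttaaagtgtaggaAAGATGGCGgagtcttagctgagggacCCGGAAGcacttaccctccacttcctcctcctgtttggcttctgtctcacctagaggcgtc
The word begins 27 bases before the start site in Ndufs3, 46 in Sdhd and 41 in Atp5g2. In Atp5j the 3 words begin 147, 88 and 61 bases before the start site of the window shown. The bases shown for Atp5g2 and Atp5j lie inside the genes as annotated in GENCODE M21, at chr15:102662864-102672352 and chr16:84827866-84835625. Those shown for Ndufs3 lie partly inside its gene, and those for Sdhd lie upstream. A second Atp5j window, whose 250 bases at chr16:84835626-84835875 lie directly upstream of the annotated gene, holds 0 of the 3 words in them.

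The libraries held between 19060359 and 46018541 unique molecular identifiers (UMIs), the counts used here, over 28516 barcodes, of which 23745 were used as cells (8835 Control and 14910 AML). Cells were clustered and named by marker genes, and 8 cell types had at least 20 cells in each library: general capillary cells and aerocytes (the 2 capillary endothelial cell types of the alveolus), arterial and venous endothelial cells, alveolar type 2 cells, ciliated cells, alveolar fibroblasts and smooth muscle cells. Of 35 clusters 6 stayed unnamed. They held 35.3% of Control and 27.1% of AML cells, mostly in 4 clusters led by the general capillary score. Outside these 4, cluster 1 was led by the alveolar type 2 score, and 215 of its 225 cells came from Control 1, which had 106 cells named alveolar type 2. Cluster 23 was led by the club cell score, and 464 of its 465 cells came from Control 3. The clusters that made up the general capillary class also differed between groups, since cluster 3 held 85.7% of the class in Control and 32.6% in AML, and cluster 6 held 1.44% and 59.7%. The leukaemia cells were 3 blood clusters whose highest marker score was that of erythroid and megakaryocytic progenitors and which held AML cells alone. Their leading genes were Cpa3 and Car1 in the cluster numbered 24, the division and histone genes Hist1h2ap, Mki67 and Top2a in 25, and Pet2, Cited1 and Mif in 26. They had 607, 1138 and 1094 cells in AML 1, 2 and 3.

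Control 1 stood apart from the other libraries. The share of a cell type's UMIs that fell on the 84 genes was lowest in Control 1 in 8 of 8 cell types, at 0.617 to 0.722 of the mean of Control 2 and Control 3. The share of cytosolic ribosomal protein genes was also lowest in Control 1 in 8 of 8 cell types, that of the mitochondrially encoded subunits in 0 of 8, and its cells were the deepest in each of the 8, with a median of 9118 UMIs per general capillary cell against 5279 and 4578 in Control 2 and Control 3. Depth also moved with the group: in 8 of 8 cell types each AML library had a lower median of UMIs per cell than each Control library, at 3795, 3793 and 2875 per general capillary cell in AML 1, 2 and 3. The part of depth in the differences below was not tested. The medians of the members and the 2 calls are given with and without Control 1.

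In general capillary cells, from which the alveolar capillary bed is renewed, the 84 genes took 1.04%, 1.66% and 1.71% of UMIs in Control 1, 2 and 3 and 1.71%, 1.73% and 1.81% in AML 1, 2 and 3. All AML libraries lay above all Control libraries, AML 1 by a narrow margin. Aerocytes, the gas-exchange capillary cells, had shares of 1.09%, 1.68% and 1.72% against 1.76%, 1.67% and 1.81%. Alveolar type 2 cells, which make surfactant, had 1.17%, 1.62% and 1.62% against 1.53%, 1.65% and 1.79%. In both of these cell types the groups overlapped, and Control 1 alone lay far from the rest. The shares were higher in ciliated cells, at 1.69%, 2.39% and 2.31% against 2.32%, 2.21% and 2.33%, and in smooth muscle cells, at 1.56%, 2.35% and 2.25% against 2.70%, 2.05% and 2.65%. The mean AML share was 1.07 to 1.2 times the Control mean over the 8 cell types and 0.973 to 1.07 times the mean of Control 2 and Control 3, and the groups did not overlap in 2 of the 8, general capillary and arterial cells. Leukaemia cells stood above every niche cell type tested, with 3.231%, 3.203% and 3.052% in AML 1, 2 and 3.

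**Figure D1:**
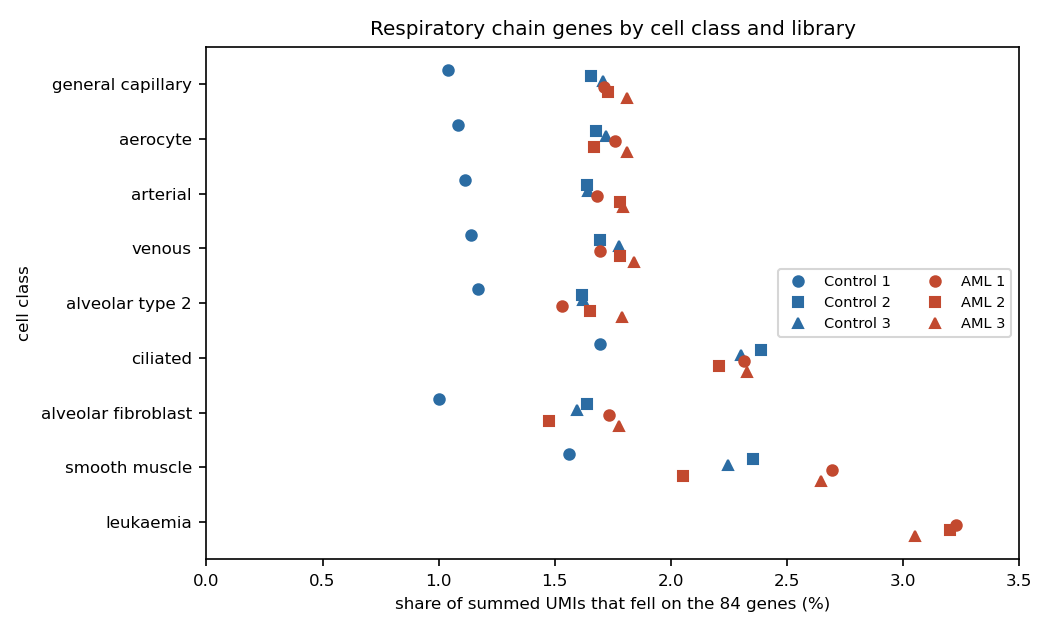
Share of a cell type's UMIs, in percent, on the 84 nuclear respiratory chain genes, with 1 point per library for the 8 tested cell types and the leukaemia cells. Control 1 is the lowest point in each of the 8 niche cell types, and the leukaemia cells lie between 3.05% and 3.23%.

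The comparison of AML with Control asked whether niche cells of leukaemic lungs hold other levels of these transcripts. UMIs were summed per library and cell type and tested for all genes with edgeR's quasi-likelihood test and Benjamini-Hochberg adjustment over all genes tested, 3 libraries against 3. In alveolar type 2 cells 2 of 80 members tested rose and none fell, where 4.13% of all genes tested were called. In the other 7 cell types 0 members were called, where the share of all genes called was 2.75% in general capillary cells, 3.18% in aerocytes, 0.489% in arterial, 0.081% in venous, 0.599% in ciliated cells, 3.11% in alveolar fibroblasts and 1.07% in smooth muscle cells. At an unadjusted p below 0.05 edgeR had 12 members of 78 in general capillary cells, where 20% of all genes reached it, 8 of 77 in aerocytes (15.6%), 9 of 76 in arterial (11.6%), 8 of 76 in venous (11.7%) and 3 of 76 in ciliated cells (9.13%). There were 7 of 78 in alveolar fibroblasts (16.3%), 12 of 78 in smooth muscle cells (11.5%) and 17 of 80 in alveolar type 2 cells (20.4%). The members' share was 15.4%, 10.4%, 3.95% and 8.97% in general capillary, aerocyte, ciliated and alveolar fibroblast sums, below that of all genes. In arterial, venous and alveolar type 2 sums it was 11.8%, 10.5% and 21.2%, close to that of all genes. In smooth muscle sums it was 15.4%, above the 11.5% of all genes. DESeq2 also called 0 members in each of these 7 cell types and 2 in alveolar type 2 cells. Of the 84 genes 76 passed the filter on low counts in all 8 cell types, 6 passed in some of them (Cox4i2, Cox6a2, Cox6b2, Cox7a1, Cox8b and Ndufa4l2), and Cox7b2 and Cox8c, with 12 and 2 UMIs in all cells, passed in none.

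Small positive differences were common although few were called. The median log2 difference of the members tested, AML minus Control, was 0.27 in general capillary cells (72 of 78 higher), 0.22 in aerocytes (69 of 77), 0.26 in arterial cells (65 of 76) and 0.28 in venous cells (68 of 76). It was 0.27 in alveolar type 2 cells (75 of 80), 0.07 in ciliated cells (49 of 76), 0.20 in alveolar fibroblasts (66 of 78) and 0.35 in smooth muscle cells (74 of 78), while the median over all genes tested lay between -0.005 and 0.0116 in every cell type. Of all genes tested, 49.5% (ciliated cells) to 51.1% (smooth muscle cells) were higher. Without Control 1 the medians of the members were, in the same order, 0.07, 0.04, 0.12, 0.10, 0.10, -0.06, 0.01 and 0.13. Members for which each AML library exceeded each Control library numbered 24 in general capillary cells (14.1% of all genes tested did so), 21 in aerocytes (10.6%), 20 in arterial (8.82%), 19 in venous (9.13%) and 28 in alveolar type 2 cells (13.2%). There were 6 in ciliated cells (7.26%), 17 in alveolar fibroblasts (9.93%) and 13 in smooth muscle cells (8.28%). The library that stands apart, Control 1, enters all of these counts.

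Markers of cell types moved in the same sums. In alveolar fibroblasts 3 of 5 mesenchymal markers fell, the collagen genes Col1a1, Col1a2 and Col3a1, and the 5 summed to 4851, 3979 and 4217 unscaled CPM (UMIs relative to the unscaled sum) in Control and 2205, 2059 and 2621 in AML. Both endothelial markers tested there, Cldn5 and Egfl7, fell, and the 5 endothelial markers of the list summed to 476.9, 98.03 and 386 against 22.97, 74.3 and 74.03. Of these 5 calls none held without Control 1, with edgeR adjusted p-values from 0.0975 to 0.311 on fewer libraries. The collagen differences themselves changed little: log2 -1.67 with and -1.63 without Control 1 for Col1a1, -1.47 and -1.34 for Col1a2, and -2.61 and -2.63 for Col3a1. Cldn5 had -2.08 and -1.9, and Egfl7 -1.42 and -0.931. In smooth muscle cells 1 of 3 endothelial markers tested, Cdh5, and 1 of 4 mesenchymal markers tested, Col3a1, fell, and both calls held without Control 1 (0.00615 and 0.0327). The endothelial list summed there to 182.9, 404.7 and 125.5 against 53.31, 76.7 and 22.28 unscaled CPM. In alveolar type 2 cells 1 of 5 epithelial markers, the keratin gene Krt8, rose (log2 1.06, edgeR adjusted p = 0.0289, and 0.957 with 0.29 without Control 1). The part of these markers in the members' differences was not tested.

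**Figure D2:**
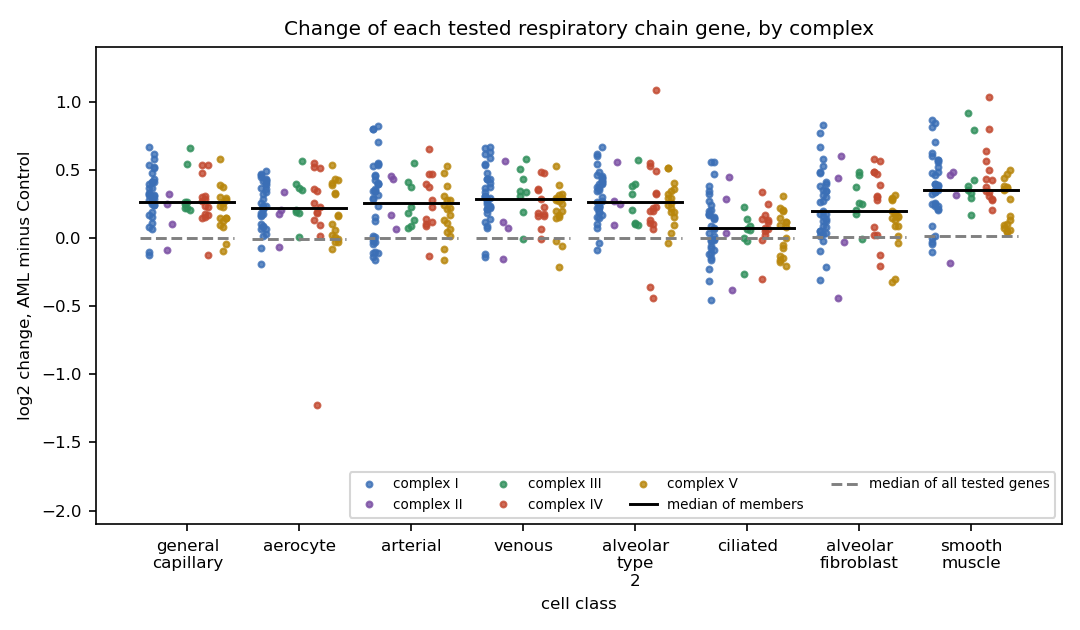
Log2 difference of AML minus Control for each member tested, by complex and cell type, with the median of the members (solid line) and of all genes tested (dashed line). The line of the members lies lowest in ciliated cells, at 0.07, and the lowest single point, at -1.22, is Cox4i2 in aerocytes.

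Complex I carries electrons from NADH through a flavin and a chain of iron-sulfur clusters. Its 35 members had medians of 0.32 in general capillary cells, 0.34 in arterial cells, 0.34 in alveolar type 2 cells, 0.35 in smooth muscle cells and 0.07 in ciliated cells. Without Control 1 these were 0.11, 0.17, 0.13, 0.16 and -0.08. Ndufs3, a core subunit of the arm that reaches into the matrix, rose in alveolar type 2 cells: it stood at 47.3, 65.9 and 63.5 CPM (UMI counts relative to the sum of the library's cells of that type, scaled by edgeR's TMM factors) in Control 1, 2 and 3 and at 83.5, 99.9 and 97.4 in AML 1, 2 and 3. The groups did not overlap, and the log2 difference was 0.67 ± 0.173 (SE, n = 3 per group; edgeR adjusted p = 0.0321). The call was lost without Control 1 (log2 difference 0.53, adjusted p = 0.0817), without Control 3 (0.0752), without AML 2 (0.149), without AML 3 (0.172) and with doublets kept (0.103), within a range of 0.00729 to 0.172 over all alternatives. Ndufs3 lies at chr2:90894634-90904827 on the minus strand and overlaps Kbtbd4 on the other strand by 88 bases.

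Ndufv2, an iron-sulfur subunit of the NADH-binding module, was among the 3 members with the smallest unadjusted p in 4 of the 7 cell types without a call. In general capillary cells its level was 61.4, 112 and 112.1 CPM in Control and 133.6, 170.5 and 151.1 CPM in AML, with no overlap (log2 difference 0.67 ± 0.23, edgeR adjusted p = 0.137). In smooth muscle cells it was 104.1, 135.1 and 133.2 against 218.5, 197.8 and 233 CPM, again without overlap (0.81 ± 0.264, edgeR adjusted p = 0.181). In arterial cells, where it was 109, 130.4 and 137.7 against 108.7, 123.3 and 145.2 CPM, the groups overlapped and the log2 difference was 0.00. Ndufv1, the flavin-bearing partner of Ndufv2, had 41.5, 69.2 and 67.8 against 80.0, 93.5 and 94.7 CPM in general capillary cells (0.58 ± 0.207, edgeR adjusted p = 0.149) and was higher in AML in 8 of 8 cell types, with or without Control 1.

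Ndufb9 and Ndufb10, accessory subunits of the membrane arm, led in arterial cells: Ndufb10 had 87.8, 139.6 and 123.9 against 187.4, 218.4 and 212.2 CPM, and Ndufb9 had 115.1, 159.8 and 198.3 against 281, 281.2 and 262.4 CPM. Neither gene overlapped between groups, and their edgeR adjusted p-values were 0.156 and 0.159. In ciliated cells the accessory subunit Ndufc2 had 456.9, 744.3 and 572.8 against 858.7, 830.5 and 919 CPM (log2 0.56 ± 0.208, edgeR adjusted p = 0.309), and Ndufa10 had 77.3, 89.0 and 66.9 against 117.4, 120.6 and 106.3 CPM (0.55 ± 0.246, edgeR adjusted p = 0.468). Ndufs1, the largest iron-sulfur subunit of the complex, showed no shared direction, with log2 differences from -0.12 in ciliated to 0.62 in venous cells.

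Complex II has 4 subunits, all nuclear. Sdha, the flavin subunit where succinate is oxidised, had 95.1, 95.7 and 92.5 CPM in Control and 97.7, 82.1 and 86.2 CPM in AML in general capillary cells (log2 difference -0.09 ± 0.16, edgeR adjusted p = 0.801). Its Control 1 value did not stand apart, and it was higher in AML in 4 of 8 cell types. Sdhb, the iron-sulfur subunit, had 101.7, 158.6 and 157.6 against 180.2, 194.3 and 150 CPM in the same cells and was higher in AML in 8 of 8 cell types. The groups overlapped there through AML 3 (log2 0.32 ± 0.207, edgeR adjusted p = 0.405). The membrane anchors Sdhc and Sdhd had log2 differences from -0.38 to 0.34 and from -0.44 to 0.46 over the 8 cell types, and none of the 4 genes was called in any of them. The lowest value was that of Sdhd in alveolar fibroblasts, where it had 50.7, 67.3 and 72.6 against 40.38, 47.93 and 49.97 CPM, each AML library below each Control library (edgeR adjusted p = 0.472).

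Complex III moves electrons from ubiquinol to cytochrome c. All of its 8 members were higher in AML in general capillary cells, aerocytes, arterial, alveolar type 2 and smooth muscle cells, none of them called. Without Control 1 all 8 were higher in smooth muscle cells alone of these 5, and 4 to 6 in the others. Uqcrfs1, the Rieske iron-sulfur protein, had 42.6, 68.9 and 69.3 CPM in Control and 84.7, 117.3 and 87.1 CPM in AML in general capillary cells, with no overlap (log2 difference 0.66 ± 0.217, edgeR adjusted p = 0.123). It was higher in AML in 8 of 8 cell types with all libraries and in 8 of 8 without Control 1, with a median over cell types of 0.57 and 0.43. Uqcrc1, a core subunit, differed most in smooth muscle cells, at 67.5, 83.4 and 55.3 against 157.6, 111.8 and 127.3 CPM (0.92 ± 0.282, edgeR adjusted p = 0.143). Control 3 was the lowest library there, and the groups did not overlap.

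Complex IV reduces oxygen. Cox6a2, the form of subunit VIa known from heart and skeletal muscle, rose in alveolar type 2 cells and was the member with the largest called difference: 152.3, 204.5 and 223.7 CPM in Control and 317, 488.6 and 423.6 CPM in AML. No AML library overlapped a Control library (log2 difference 1.08 ± 0.217, a fold of 2.12, n = 3 per group; edgeR adjusted p = 0.00929). The call held without Control 1 (0.93, adjusted p = 0.0269) and was lost without AML 2 (0.0801) and without AML 3 (0.07), within a range of 3.21e-05 to 0.0801 over all alternatives. Cox6a1, the common form, had 185, 209.1 and 201 against 183.7, 216.5 and 238.1 CPM in the same cells, with overlapping groups (0.10 ± 0.183, edgeR adjusted p = 0.794). Endothelial marker genes in the alveolar type 2 sums, a sign of RNA from other cells, summed to 117, 109 and 55.9 CPM of the unscaled sums in Control and 68.4, 31.5 and 28.6 in AML, and their part in the 2 calls was not tested. Cox6a2 lies at chr7:128205435-128206387 on the minus strand, within Itgad on the other strand.

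No other complex IV member was called in any of the 8 cell types. The median of complex IV was 0.25 in general capillary cells and 0.40 in smooth muscle cells, and 0.003 and 0.19 without Control 1. Cox4i1, the common form of the subunit through which ATP inhibits the enzyme, had 349.6, 631 and 624.5 CPM in Control and 688.8, 776.6 and 764.6 CPM in AML in general capillary cells, and 326.2, 550 and 530.4 against 657.5, 717 and 690.5 CPM in aerocytes. The groups were apart in both cell types, with edgeR adjusted p-values of 0.291 and 0.194, and the gene was higher in AML in 8 of 8 cell types also without Control 1. Cox5b, a zinc-binding subunit, followed the same order in aerocytes, at 201.8, 351.3 and 349.2 against 388.5, 453.1 and 452.7 CPM (log2 0.52 ± 0.221, edgeR adjusted p = 0.254). Cox5a, a subunit on the matrix side, had log2 differences from 0.05 in ciliated to 0.53 in general capillary cells and was not called. In smooth muscle cells Cox4i2, the restricted form of subunit IV, had 173.4, 120.1 and 136.5 against 300.9, 352.6 and 233 CPM, with no overlap (1.03 ± 0.276, edgeR adjusted p = 0.0676), and Ndufa4l2 had 140.7, 106.7 and 139.7 against 279.4, 245.1 and 153.7 CPM (0.80 ± 0.282, edgeR adjusted p = 0.228). In aerocytes Cox4i2 went the other way, with 6.76, 13.05 and 9.2 CPM in Control and 1.46, 9.19 and 3.79 in AML (-1.22 ± 0.523, edgeR adjusted p = 0.256). The groups overlapped there through AML 2, and the values rest on 65 UMIs in Control and 14 in AML. Both genes are strongest in pericytes, and the 8 pericyte markers summed to 1774, 1403 and 1472 unscaled CPM in the Control and 1506, 1901 and 1326 in the AML smooth muscle sums, against 4844 to 10850 in the pericyte sums. Their part in these differences was not tested.

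Complex V makes ATP. Its 17 members had medians of 0.23 in general capillary cells and 0.26 in alveolar type 2 cells, and of 0.03 and 0.08 without Control 1. In aerocytes, ciliated cells and alveolar fibroblasts they had 0.158, 0.083 and 0.152, which turned to -0.081, -0.056 and -0.056 without Control 1. In arterial, venous and smooth muscle cells they had 0.21, 0.249 and 0.282, and 0.070, 0.095 and 0.041 without Control 1. The catalytic beta subunit of complex V, Atp5b, had 323.1, 385.3 and 375.4 CPM in Control and 372.6, 398.8 and 372.9 CPM in AML in general capillary cells, with overlapping groups (log2 difference 0.08 ± 0.179, edgeR adjusted p = 0.849). The c subunit, which forms the rotating ring, is encoded by 3 genes that give the same mature protein. Of these Atp5g1 had 104.4, 174.3 and 191.6 against 201.5, 275.9 and 229.1 CPM (0.58 ± 0.233, edgeR adjusted p = 0.193), with the groups apart. Atp5g2 had 201.3, 366.5 and 350.5 against 342.6, 305.3 and 351.9 CPM (0.12 ± 0.231, edgeR adjusted p = 0.804), and only Control 1 was far from the other libraries. Atp5g3 lay between them, with a log2 difference of 0.29 ± 0.197.

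Across the cell types 38 of the 76 members tested in all 8 were higher in AML in each of them, and without Control 1 this held for 13: Atp5l, Atp5o, Cox4i1, Cox5b, Ndufa12, Ndufa6, Ndufb10, Ndufb7, Ndufb9, Ndufv1, Sdhb, Uqcrfs1 and Uqcrq. The cell types of a library share its preparation, so these are not independent repeats. The share of all genes that were higher in each of the 8 was not counted, so 38 and 13 have no background beside them. Members higher in 4 or fewer cell types numbered 6: Atp5e, Atp5j2, Atp5k, Ndufa1, Ndufa3 and Sdha, named here after their values were seen. Ndufa3, an accessory subunit of complex I, was higher in AML in 1 of 8 cell types, and in general capillary cells it had 88.3, 154.4 and 177.7 against 123.4, 101.4 and 158.9 CPM. All 3 AML libraries lay below Control 3 and above Control 1.

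Transcript length was set beside these differences, because the members are short: their longest transcripts in GENCODE M21 ran from 360 to 4715 bases, with a median of 849.5. Over the 3691 genes tested in all 8 cell types, Spearman's rho between length and the median log2 difference was -0.48, and without Control 1 it was -0.07. Over the 76 members rho was 0.04 and 0.27, as a description across genes that share libraries. In the shortest of 4 equal bins of all these genes, 922 genes of 204 to 1725 bases had a median log2 difference of 0.20, and the 64 members in it had 0.26. Without Control 1 these were 0.05 and 0.07.

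**Figure D3:**
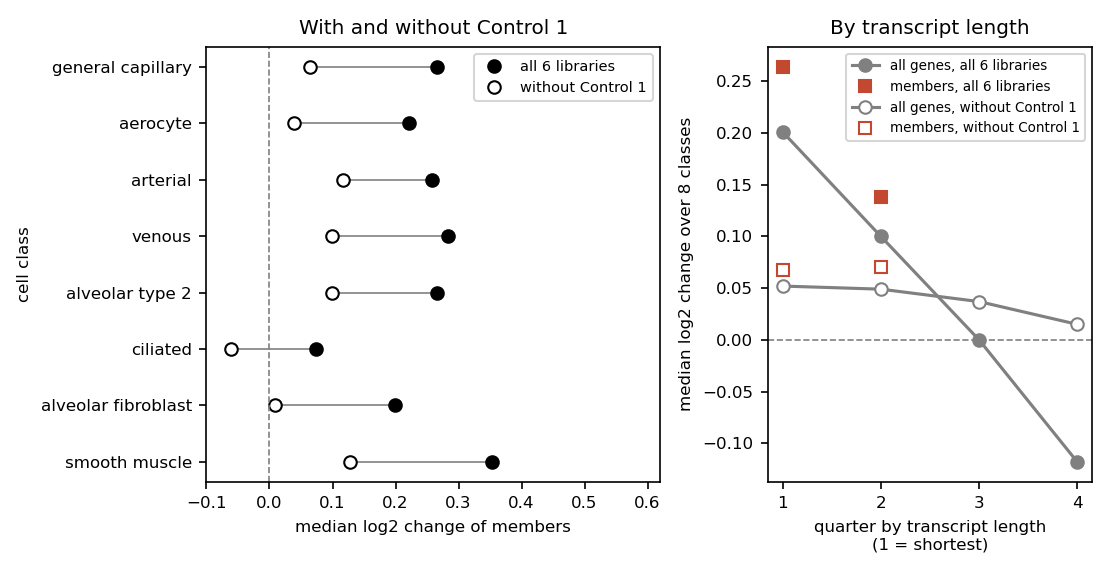
Left, the median log2 difference of the members tested, AML minus Control, in each of the 8 cell types with all libraries and without Control 1. Right, the median log2 difference in 4 equal bins of transcript length, with and without Control 1, for all genes and, in the bins where they number over 3, for members. With all libraries the shortest bin stood at 0.20 for all genes and 0.26 for members.

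Other genes of mitochondrial energy metabolism were read from the same fits. The 13 mitochondrially encoded subunits had median log2 differences of -0.08 in general capillary cells, 0.15 in aerocytes, 0.11 in alveolar type 2 cells and -0.22 in alveolar fibroblasts, where 2 of 13 were higher in AML. Without Control 1 these were -0.21, 0.10, 0.12 and -0.27. Only mt-Nd3, a complex I subunit, was called: it fell in aerocytes (log2 -0.73 ± 0.192, edgeR adjusted p = 0.049) and in alveolar fibroblasts (-0.82 ± 0.218, edgeR adjusted p = 0.0444), and both calls held without Control 1 (0.0219 and 0.0416). In the other cell types the lowest value among the 13, of whichever gene, lay between -0.745 in arterial and -0.624 in ciliated cells, without a call. A fall of about this size was thus not particular to aerocytes and alveolar fibroblasts. The nuclear and the mitochondrially encoded subunits of the same complexes had medians of opposite sign, with all libraries, in general capillary, arterial, venous and ciliated cells, alveolar fibroblasts and smooth muscle cells. Assembly factors of the chain had medians of 0.12 in general capillary cells (31 of 49 higher, 0 called) and 0.17 in alveolar type 2 cells (35 of 48 higher), and without Control 1 these were -0.01 (23 of 49) and 0.06. The 1 called, Sdhaf1, an assembly factor of complex II, rose in alveolar type 2 cells (log2 0.951, edgeR adjusted p = 0.0198, and 0.801 with 0.0987 without Control 1). Tricarboxylic acid cycle genes had medians from 0.07 in aerocytes to 0.19 in alveolar type 2 cells with 0 of 16 called in any cell type, and 3 of 16 at an unadjusted p below 0.05 in each of general capillary, alveolar type 2 and ciliated cells, where 20%, 20.4% and 9.13% of all genes reached it. Proteins of the mitochondrial ribosome had medians of 0.31 in general capillary cells (70 of 78 higher, 0 called) and 0.28 in alveolar type 2 cells (67 of 77 higher, 5 rose), and of 0.14 and 0.13 without Control 1. Of all genes tested in alveolar type 2 cells 4.13% were called. Without Control 1 the edgeR adjusted p-values of these 5 ran from 0.05 for Mrpl11 to 0.152 for Mrps18b, on fewer libraries. Their log2 differences were 0.614 to 1.06 with and 0.492 to 0.959 without Control 1. Cytosolic ribosomal genes, a list drawn by symbol that also takes in Rps6k kinase genes, had 0.14 and 0.42 in general capillary and alveolar type 2 cells (73 of 89 and 85 of 87 higher, 0 called). Without Control 1 the first turned to -0.06 (27 of 89 higher) and the second was 0.22. Regulators of mitochondrial biogenesis ran the other way in capillary cells: their median was -0.25 in general capillary cells (3 of 13 higher) and -0.14 in aerocytes (2 of 10 higher), and -0.26 and -0.04 without Control 1. The 1 regulator called, Myc, a general growth regulator, rose in general capillary cells from 0, 3 and 1 UMIs in Control 1, 2 and 3 to 14, 43 and 39 in AML 1, 2 and 3 (edgeR adjusted p = 0.0381), and without Control 1 the call was lost (0.19). In the other cell types their medians lay between -0.14 in smooth muscle cells (1 of 4 higher) and 0.21 in alveolar fibroblasts (5 of 6 higher).

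Whether the AML difference itself was unlike between cell types was tested as an interaction, with the library as a block. For alveolar type 2 against general capillary cells 0 of 81 members were called, where 3.23% of all genes were, and for alveolar fibroblasts against general capillary cells 0 of 80, where 2.49% were. At an unadjusted p below 0.05 edgeR had 1 and 3 members, where 15.5% and 13.4% of all genes reached it, and DESeq2 called 0 in both. The 1 member was Cox7a2l, which joins complexes III and IV in supercomplexes, with a difference of log2 differences of 0.48 ± 0.135 (edgeR adjusted p = 0.0549). It had 193.6, 302.2 and 260.2 CPM in Control against 231.8, 210.7 and 249.7 CPM in AML in general capillary cells, and 198.7, 300.2 and 249.3 against 303.3, 321.9 and 308.4 CPM in alveolar type 2 cells. The Control values were alike in the 2 cell types and the AML values were not, with no call after adjustment. In the alveolar type 2 contrast 3 of 13 mitochondrially encoded and 18 of 89 cytosolic ribosomal genes were called higher.

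The restricted forms differed widely between cell types, and their levels are given as unscaled CPM, the plain share of a cell type's summed UMIs, as a description. Cox4i2 stood between 1365 and 2484 unscaled CPM in pericytes, the mural cells of capillaries, over the libraries with at least 20 of them, against 113.4 to 331 in smooth muscle and 10.6 to 23.2 in general capillary cells. Of the UMIs of Cox4i2 and Cox4i1 summed over a group's libraries, Cox4i2 made up 76.2% in Control pericytes (95% exact binomial interval 73.7 to 78.6%, counting error only) and 74.4% in AML pericytes. That share was 13.3% and 16.3% in smooth muscle cells and 2.68% and 2.48% in general capillary cells, and 2.08% (1.61 to 2.64%) and 0.59% (0.323 to 0.988%) in aerocytes. By library the aerocyte share was 2.031%, 2.318% and 1.706% in Control 1, 2 and 3 and 0.2212%, 1.266% and 0.5453% in AML 1, 2 and 3. In leukaemia cells the Cox4i2 share was 0.029%, from 20 of 68820 UMIs. Those cells are far deeper and occur in AML libraries alone, so this value does not measure the background of free RNA in niche cells. Ndufa4l2, a relative of Ndufa4 known as a target of the hypoxia factor HIF1, had the same order over these niche cell types: 477 to 1014 unscaled CPM in pericytes, where it made up 76.1% of Ndufa4l2 and Ndufa4 UMIs in Control and 72.8% in AML, 100.8 to 259.9 in smooth muscle cells and 3.82 to 9.73 in general capillary cells. In leukaemia cells it had 5.58 to 18.4 unscaled CPM and a pooled share of 2.48%, beside 1.54% and 1.53% in Control and AML general capillary cells. By library the leukaemia share was 2.114%, 3.617% and 1.283% in AML 1, 2 and 3, against 1.75%, 0.6487% and 1.608% in capillary cells. The order turned in AML 3, so the capillary level did not stand above that of leukaemia cells in each library as it did for Cox4i2. In adventitial fibroblasts the share was 31.51%, 16.98% and 25.64% in Control 1, 2 and 3 and 18.75%, 7.692% and 12.38% in AML 1, 2 and 3. The groups overlapped, the 2 sums held 296 and 214 UMIs of the pair, and Control 1 and AML 2 had fewer than 20 of these cells.

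Cox6a2 was highest in alveolar type 2 cells, at 177.6 to 460.5 unscaled CPM against 0 to 4.79 in general capillary cells and 0.264 to 0.381 in leukaemia cells. Outside them it reached 72.6 in B lymphocytes of AML 1, which held all 19 UMIs found in that cell type, 31.1 in alveolar type 1 cells of Control 2 and 15.4 in lymphatic cells of AML 1, and it stayed at or under 5.77 in each other cell type and library with at least 20 cells. It made up 49.3% of Cox6a2 and Cox6a1 UMIs in Control alveolar type 2 cells (95% exact binomial interval 47.7 to 50.9%) and 65.5% in AML (64.2 to 66.7%). These intervals hold counting error only and not the spread between libraries. By library the share was 45.16%, 49.45% and 52.67% in Control 1, 2 and 3 and 63.31%, 69.3% and 64.02% in AML 1, 2 and 3. The muscle form Cox8b was found in alveolar fibroblasts at 10.9 to 50.5 unscaled CPM and made up 4.71% of Cox8b and Cox8a UMIs in Control and 4.75% in AML. In smooth muscle cells 0 of 1139 Control UMIs of this pair were Cox8b, which allows a share of up to 0.263% by a floor of 3 counts and of 0.323% by the exact binomial interval. Cox6b2, the form of subunit VIb known from testis, was added to this group after its values were seen: it reached 77.9 to 193 unscaled CPM in alveolar fibroblasts, 19.9 to 30.3 in alveolar type 2 cells and 38.9 to 71.1 in leukaemia cells, against 0.342 to 1.64 in general capillary cells. Cox7a1, the heart and muscle form of subunit VIIa, stayed at or under 11.8 unscaled CPM in the 8 tested cell types and in leukaemia cells.

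**Figure D4:**
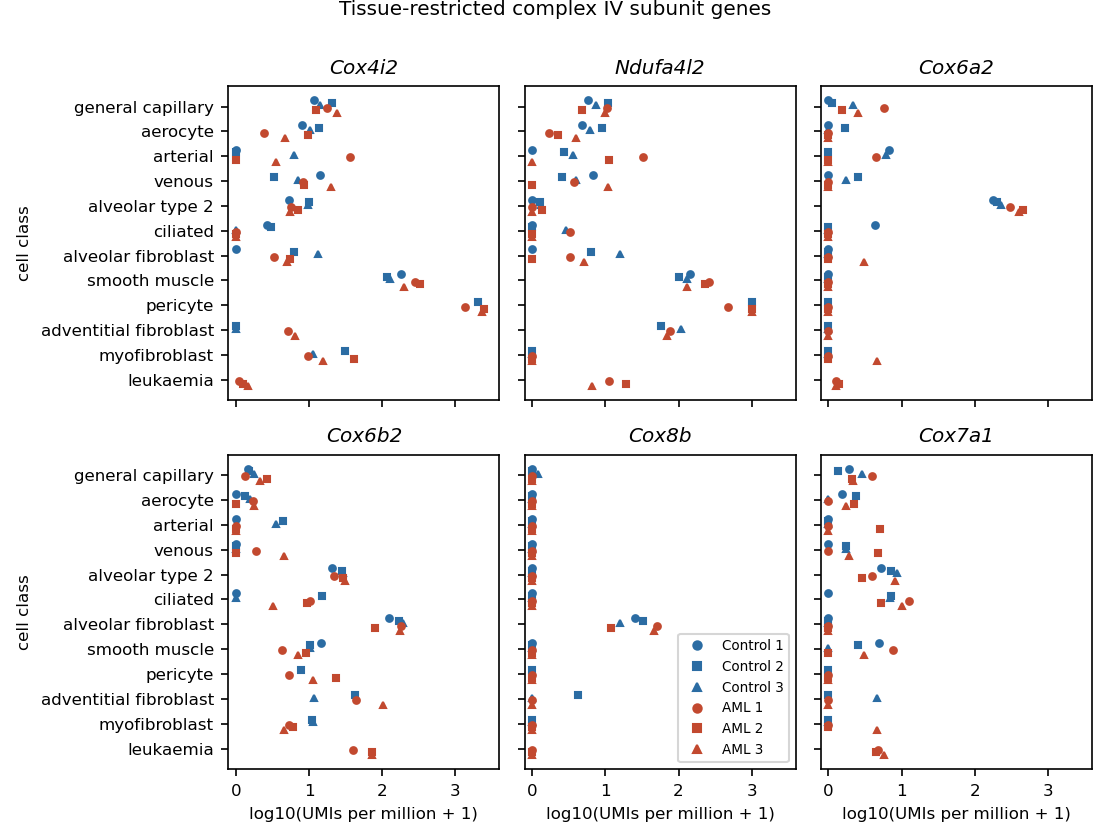
Levels of the restricted forms as log10 of unscaled CPM plus 1, with 1 point per library that has at least 20 cells of the type. Cox4i2 and Ndufa4l2 are highest in pericytes, Cox6a2 in alveolar type 2 cells, and Cox8b and Cox6b2 in alveolar fibroblasts.

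Leukaemia cells were set beside the general capillary cells of the same AML libraries, so that each ratio is taken within a library. The cells were far deeper, with median UMIs of 29817, 22832 and 20556 per leukaemia cell against 3795, 3793 and 2875 per capillary cell, and levels are unscaled CPM of each sum. Of 77 members over the floor of 3 counts, 65 were higher in leukaemia cells in all 3 libraries, where 40.3% of all genes over the floor were, and 5 were lower. The median ratio was 1.7 for members and 0.956 for all genes. Against alveolar type 2 cells 68 of 79 members were higher in all 3 libraries, where 58.8% of all genes were, with medians of 1.96 and 1.51. Within the leukaemia cells the share of members was highest in the cluster numbered 26, at 4.12%, 3.84% and 3.87% in AML 1, 2 and 3, against 2.82% to 3.23% in the clusters numbered 24 and 25. Cluster 26 also had the shallowest cells in each library, with median UMIs of 16421, 11508 and 18639, against 19845 to 34958.5 in 24 and 25. Of its cells 65.97% came from AML 2, and the part of depth was not tested.

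Against general capillary cells, all 17 complex V members and all 8 complex III members were higher in leukaemia cells in all 3 libraries, with median ratios of 2.07 and 2.13. Complex I had 28 of 35 higher with a median of 1.54, complex II 3 of 4 with 1.35 and complex IV 9 of 13 with 1.61. Against alveolar type 2 cells all 8 complex III and 15 of 17 complex V members were higher in all 3 libraries. Atp5d was lower there in each library, with a ratio of 0.677 (0.595 to 0.812). Complex I had 29 of 35 higher than in alveolar type 2 cells, complex II 4 of 4 and complex IV 12 of 15. Atp5g1, of the c-ring, had the highest ratio, with 1309, 1130 and 936 unscaled CPM in leukaemia against 205.7, 265.9 and 226 in capillary cells, a ratio of 4.82 (4.14 to 6.36 over the libraries). Its sister Atp5g2 had 1120, 1264 and 1025 against 349.9, 294.2 and 347.1, a ratio of 3.44, and Atp5b had 1268, 1162 and 1056 against 380.5, 384.3 and 367.8, a ratio of 3.07. Atp5mpl, a small subunit of the same complex, had a ratio of 4.36, Cox7b, a small complex IV subunit, 4.02 and Ndufc2 3.3, all picked after their values were seen.

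The 4 complex II genes spread widely. Sdhd had 201.6, 227.7 and 207.7 unscaled CPM in leukaemia cells against 72.4, 79.2 and 71.8 in capillary cells, a ratio of 2.85. Sdhb had 168.7, 165.6 and 141.3 against 184, 187.2 and 147.9, a ratio of 0.918 that was below 1 in all 3 libraries. Against alveolar type 2 cells, with 75.3, 87.4 and 89, its ratio was 1.89 (1.59 to 2.24), so the direction depends on the cell type it is set against. Against capillary cells Sdha and Sdhc lay between Sdhb and Sdhd, at 1.21 and 1.5. The lowest ratios to capillary cells were 0.544 for Ndufs5 (0.5 to 0.579), 0.649 for Ndufa5 and 0.839 for Ndufa4, picked after their values were seen. To alveolar type 2 cells these 3 had 0.86, 1.04 and 1.18. The 13 mitochondrially encoded subunits had a median ratio of 0.999 to capillary cells, with 4 higher and 5 lower in all 3 libraries, beside 1.7 for the nuclear members. To alveolar type 2 cells they had 0.745, with 1 higher and 8 lower, beside 1.96. Proteins of the mitochondrial and the cytosolic ribosome had medians of 2.03 and 3.02 to capillary cells, tricarboxylic acid cycle genes 1.52 and assembly factors 1.58. To alveolar type 2 cells these medians were 2.91, 2.34, 1.76 and 2.19.

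**Figure D5:**
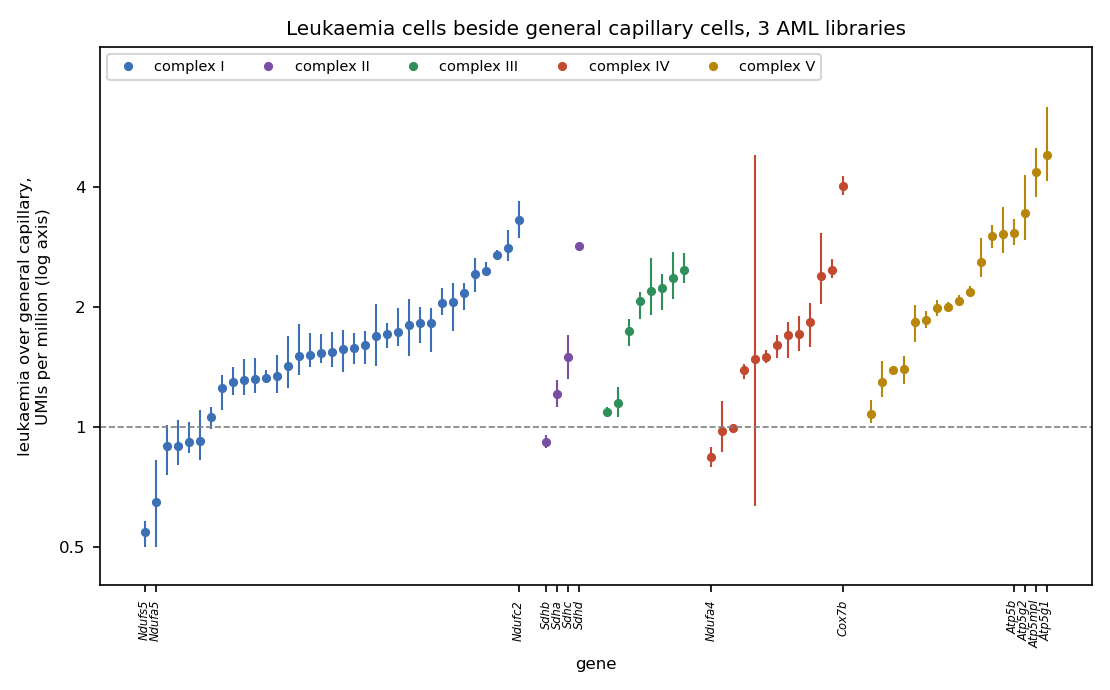
Ratio of the level in leukaemia cells to that in general capillary cells of the same AML library, on a log axis, for each member over the floor, by complex, with the genes whose ratios are given in the text labelled. Points are geometric means of 3 libraries and bars run from the lowest to the highest library. Every complex III and complex V member lies above 1, and Atp5g1 is highest at 4.82.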

How the data were processed

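Raw UMI counts per gene and barcode for 3 Control and 3 AML libraries were used as the authors deposited them, without normalization. The matrices were made with Cell Ranger 6.0.1 per the file headers, while the submitters' processing notes name version 7.0.0 and the mm10 build. The settings that handle strand are not given in the sources used here, and 30 members overlap a gene on the opposite strand and 12 on the same strand.

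Cells needed at least 500 genes and at most 15% mitochondrial UMIs. Scrublet scores removed the top 0.8% of cells per 1000 cells of a library as doublets, 895 cells (3.632%). Cells were clustered with scanpy 1.11.5 and igraph 0.11.9 (Python 3.11.15, numpy 2.4.6) on 2000 variable genes without the members, 30 principal components, 15 neighbours and Leiden resolution 1.0. A second round at 0.3 split clusters in which a second cell type scored above 1.5. The number of clustering iterations and the second round were settled after cluster tables were seen, and the borders of a cell type depend on them. Libraries shared 125 barcode sequences, 1 to 24 per pair. Replicates were no copies of each other (chi-square per degree of freedom 6.98 to 30.9 over genes).

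UMIs were summed per library and cell type with at least 20 cells per library and tested with edgeR 4.0.16 (limma 3.58.1, R 4.3.3; TMM, filterByExpr, robust quasi-likelihood test, Benjamini-Hochberg threshold 0.05), with DESeq2 1.42.0 as an alternative. The test was checked on simulated data. CPM values are scaled by TMM factors except where they are called unscaled. Medians over members have no test. Other alternatives were size factors, no low-count filter, a replicate block, leaving out each library, subtracting blood cell RNA, keeping doublets, a mitochondrial maximum of 10%, members among the variable genes, resolution 0.5 and leaving out clusters mostly of 1 library.

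The members, gene lists, promoter words and tests were chosen with earlier results of these data known. Named were called members, in cell types with fewer than 3 of those the 3 members with the smallest p, the restricted forms with their common forms, the Sdh genes, and Ndufs1, Ndufv1, Uqcrc1, Uqcrfs1, Cox5a, Atp5b and Atp5g1 to Atp5g3. Values of 1 member that this rule names are not reported here. Protein sequences were not used here.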

Additional observations from a re-analysis of the deposited data

How the results depend on the processing

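Each median of the members stayed above 0 under the 16 settings computed per cell type, except in ciliated cells, where 2 were below 0: -0.06 without Control 1 and -0.55 with blood cell RNA subtracted. That subtraction also gave 8 members called lower in ciliated cells and turned Ndufa10 there to -0.37. Of the 819 blood-marker UMIs in ciliated cells, Control included, 804 were of Myb, so what was subtracted rests on that gene. Without the low-count filter 3 members were called in general capillary cells, 6 in alveolar type 2 cells, 1 in alveolar fibroblasts and 1 in the alveolar type 2 minus general capillary contrast. At resolution 0.5 alveolar fibroblasts had 1 call and general capillary cells gave no value. With doublets kept alveolar type 2 cells had 1 call. Leaving out 1 library gave 0 to 5 calls in alveolar type 2 cells (0 without AML 2 or AML 3, 5 without Control 2), 0 to 1 in smooth muscle cells and 0 to 1 in the alveolar type 2 minus general capillary contrast. The cause of these changes was not tested. Of 384 values of named members under alternatives, 368 kept direction and side of the threshold, 7 lost the call, 8 gained it and 1 reversed. These values came from 24 pairs of gene and cell type. Of the pairs only Ndufs3 and Cox6a2 in alveolar type 2 cells were called, so only their values could lose a call, and all 7 losses were theirs.

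With the replicate number as a block, 6 members were called in alveolar type 2 cells and 0 in the other 7 cell types. Same-numbered libraries deviated together by r of -0.174 to 0.103, so the numbers were not taken to pair them. All genes called in general capillary cells were 300 with the filter, 1187 without it and 559 by DESeq2, and in alveolar type 2 cells 410, 905 and 290. With and without the filter they were 285 and 584 in aerocytes, 27 and 160 in arterial, 7 and 350 in venous (104 by DESeq2), 41 and 87 in ciliated cells, 188 and 497 in alveolar fibroblasts and 58 and 123 in smooth muscle cells. In the contrasts with general capillary cells they were 382 and 672 for alveolar type 2 cells (170 by DESeq2) and 267 and 465 for alveolar fibroblasts (112). Added after the data were seen, general capillary cells widened by the unnamed capillary clusters had 0 calls and a median of 0.24, and myofibroblasts, on 5 libraries, had 0 of 76 called by edgeR (1 at an unadjusted p below 0.05) and a median of -0.005. Ciliated, arterial and smooth muscle sums rest on 21 to 34 cells in Control 1.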
